A study of Mus musculus with 2 samples.

Results

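The cells described here were regulatory T (Treg) cells of mouse melanoma that carried the transcript of Nkg7, a membrane protein of cytotoxic granules. A cell was a member when its barcode held at least 1 unique molecular identifier (UMI, the tag that counts each captured transcript once) of Foxp3, none of Cd8a or Cd8b1, none of Il1rl1, none of Tcf7 or Ccr7, fewer than 3 of Areg and at least 2 of Nkg7. By this rule 397 cells were members among 2609 Treg cells, which were all kept cells with a Foxp3 UMI and no Cd8a or Cd8b1 UMI, among 9078 kept cells and 14035 barcodes. The members made up 15.2% of the Treg cells, with a 95% exact (Clopper-Pearson) binomial interval of 13.9 to 16.7%.

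C57BL/6J mice received 100000 B16 melanoma cells, a mouse line, or B16 cells made to overexpress the cytokine IL-33 (B16-IL33), and tumors were taken on day 9. Overexpression came from the implanted tumor cells, and the hosts carried no engineered allele in this experiment. CD4+ and CD8+ T cells were stained with hashtag antibodies (2 tags for each tumor line), sorted, pooled and run as 1 droplet pool with 5′ gene expression, hashtag and T cell receptor (TCR) libraries. The sources used here do not say whether the tags of a line mark separate mice, and too few cells held a tag to form replicate samples, so all cells were treated as 1 sample and no test was made: every interval below covers counting error only, and not variation between mice or the cell-to-cell spread beyond counting.

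Treg cells are CD4+ T cells that depend on the transcription factor Foxp3 and restrain other lymphocytes. In tumors and inflamed tissues some of them take on features of the type 1 helper program, such as the receptor Cxcr3 and the factor T-bet (Tbx21), and some carry granzyme B and perforin, the proteins with which cytotoxic lymphocytes kill. Nkg7 is best known from natural killer (NK) and CD8+ T cells, where it takes part in granule release.

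The rule used the UMIs of Nkg7, Foxp3, Cd8a, Cd8b1, Il1rl1, Tcf7, Ccr7 and Areg in these same cells, so differences in these genes are no finding. The members were set beside the 1660 Treg cells with no Nkg7 UMI (Nkg7=0 Treg cells) and beside the 883 of those that also met the limits on Il1rl1, Tcf7, Ccr7 and Areg (the same exclusions). All gene values came from the cells that the rule had split and are given as a description. The members held from 2 to 76 Nkg7 UMIs, with a median of 4 and a sum of 2467. Just inside the limit, 113 members held 2 Nkg7 UMIs, and just outside it 241 Treg cells that met every other limit held 1. In UMIs of a gene per 1000000 summed UMIs of a group (CPM), Nkg7 stood at 598 in the former and at 353 in the latter. A further 106 members held 3 or 4 UMIs and 178 held 5 or more. The other limits left out 165 Treg cells with 2 or more Nkg7 UMIs.

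The gene expression library held 43420305 UMIs of mouse genes, and 11756 of its barcodes were shared with the hashtag library and 6665 with the TCR table. Members were deeper than the cells they were compared with: the median was 3535 UMIs and 1451 genes in members, 2456.5 UMIs and 1135 genes in Nkg7=0 Treg cells, and 2191 UMIs under the same exclusions. Each ratio is therefore also given where needed with the comparison cells weighted to the depth of the members over 5 depth strata. Nkg7 UMIs were also found where the gene should be absent: 11% of 127 macrophage-like cells without CD3 UMIs held at least 1 (median depth 4563 UMIs), at 25.5 CPM against 1581 CPM in members, and 4.96% did after thinning to 1500 UMIs per cell against 84.7% of members.

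The label was checked on genes outside the rule. A UMI of a CD3 gene was present in 397 of 397 members, and a UMI of Il2ra, Ctla4, Ikzf2 or Tnfrsf18, receptors and a factor typical of Treg cells, in 391 (98.5%). A single such UMI does not settle the label, since CD4+ cells without Foxp3 carry these genes too. With at least 2 Nkg7 UMIs, those cells held Ctla4 at 415, Ikzf2 at 253 and Tnfrsf18 at 520 CPM. Members held them at 1004, 811 and 1141 CPM. Only 1 Foxp3 UMI was held by 154 members (38.8%) and 739 Nkg7=0 Treg cells (44.5%). The NK cell genes Klrb1c, Klra8 and Klra4 were at 0, Ncr1 had 1 UMI and Eomes had 1 UMI over all members. The 6 NK markers summed to 45.5 CPM in members against 20.5 CPM in Nkg7=0 Treg cells, and 69 of the 71 UMIs in members were of Gzma, described below. Markers of macrophages and monocytes (Lyz2, C1qa, C1qb, Csf1r, Cd68, Adgre1) summed to 122 CPM in members, 242 CPM in Nkg7=0 Treg cells and 374 CPM under the same exclusions, with Adgre1 at 0 in members. Markers of B cells summed to 14.7 against 23.0 CPM, of dendritic cells to 2.56 against 4.81 CPM and of melanoma cells to 10.3 against 13 CPM. Ms4a1, Flt3 and Itgax were at 0 in members. At least 1 UMI of any of these markers was present in 76 members (19.1%) and 288 Nkg7=0 Treg cells (17.3%). A pair of productive TCR beta chains in the same barcode, as a doublet of T cells can give, was present in 15 of the 267 members with a beta chain (5.62%). The share was 9.80% of Nkg7=0 Treg cells, but 5.48% of those with the same exclusions, alike to the members. It was 20.5% of the Nkg7-carrying Treg cells that the other limits left out.

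Cxcr3, a receptor for interferon-induced chemokines, and Ramp1, a subunit that turns the calcitonin receptor-like receptor into the receptor of the neuropeptide CGRP, had been named with Nkg7 as marks of these cells. Neither gene was found in every member. Cxcr3 UMIs were present in 185 members (46.6%), Ramp1 UMIs in 136 (34.3%), both in 75 (18.9%) and neither in 151 (38.0%). Thinned, Cxcr3 was in 23.1% of members, 15.6% of Nkg7=0 Treg cells and 0.294% of macrophage-like cells, and Ramp1 in 18.0%, 8.99% and 4.35%. The word effector in the working name rests on the absence of Tcf7 and Ccr7, which the rule set.

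Nkg7 lies at chr7:43437073-43438249 on the plus strand (GENCODE annotation of GRCm38), and Prf1, the gene with the largest ratio described below, at chr10:61297833-61304680 on the plus strand. Their promoter windows, from 250 bases before to 50 after the gene start in RefSeq (GRCm38.p6), are shown because Prf1 was higher in members with more Nkg7. Capitals mark matches, on either strand, to the T-box letters TCACAC and the Runx letters TGTGGT, for the factor families that hold Tbx21 and Runx3. The windows are chr7:43436888-43437187 and chr10:61297586-61297885, both on the plus strand.
Nkg7: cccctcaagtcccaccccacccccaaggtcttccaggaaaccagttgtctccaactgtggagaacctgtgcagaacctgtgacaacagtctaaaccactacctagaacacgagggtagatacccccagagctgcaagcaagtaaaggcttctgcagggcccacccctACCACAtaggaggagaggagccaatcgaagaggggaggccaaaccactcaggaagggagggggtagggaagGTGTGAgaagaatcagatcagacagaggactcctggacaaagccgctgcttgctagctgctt
Prf1: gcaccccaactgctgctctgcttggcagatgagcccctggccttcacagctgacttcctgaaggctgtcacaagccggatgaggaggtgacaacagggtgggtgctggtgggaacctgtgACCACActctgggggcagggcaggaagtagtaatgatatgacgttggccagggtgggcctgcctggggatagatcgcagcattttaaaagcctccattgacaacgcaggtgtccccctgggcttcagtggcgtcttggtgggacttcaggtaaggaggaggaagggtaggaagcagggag
The Nkg7 window held 1 T-box and 1 Runx match, and the Prf1 window held 1 Runx match. Over all 32851 windows, 14.5% held the T-box letters and 16.8% the Runx letters. Among the 15 genes with the highest ratios, 10 had a window, and 2 of these held the T-box letters (Angptl2, Csf1) and 4 the Runx letters (Ccl3, Gzma, Prf1, Serpina3g). The AP-1 letters TGANTCA were in 7.81% of all windows and in 0 of the 10. A match is a run of letters, not a bound site.

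Which transcripts accompanied Nkg7 was read from the ratio of CPM in members to CPM in Nkg7=0 Treg cells, for genes with at least 100 UMIs in both groups together. Of 5912 such genes, 179 (3.03%) had a ratio of at least 1.5 and 388 (6.56%) a ratio of at most 1/1.5, or 9.59% in either direction, and the median ratio was 0.980. Against the same exclusions, 88 of 4419 genes (1.99%) were past the fold on the higher side and 225 (5.09%) on the lower, or 7.08% together. The median was then 0.972, and with depth strata against all Nkg7=0 Treg cells it was 1.01. The rule split the same cells, so these shares are a background for the lists below and not a result.

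Perforin led. Prf1, the pore-forming protein of cytotoxic granules, stood at 106 CPM in members against 15.5 CPM in Nkg7=0 Treg cells, a ratio of 6.88 (95% counting interval 5.20 to 9.17). The ratio was 6.33 with the same exclusions, 6.75 with depth strata and 6.21 with both. Its 166 UMIs came from 65 members (16.4%), and the cell with the most held 34, so Prf1 was found in a minority of the members. After thinning to 1500 UMIs, 8.75% of members and 1.98% of Nkg7=0 Treg cells held a Prf1 UMI, while macrophage-like cells had 0 of 127 cells with a UMI, which allows a level of up to 5.11 CPM (3 counts). Granzyme B, the main granule protease, was in contrast common to both groups. Gzmb stood at 1550 CPM in members and 1271 CPM in Nkg7=0 Treg cells (ratio 1.22, 1.16 to 1.28), with a UMI in 280 members (70.5%) and, thinned, in 56.7% of members, 47.5% of Nkg7=0 Treg cells and 3.73% of macrophage-like cells. Of the 65 members with Prf1, 61 also held Gzmb.

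The plot of the highest ratios shows 15 genes named by size. Chemokines were prominent among them: Ccl5, a chemoattractant of T cells and monocytes, stood at 2188 against 671 CPM (ratio 3.26, 3.11 to 3.42), with 3415 UMIs in 296 members (74.6%), and its ratio was 2.57 under the same exclusions. Thinned, 62.4% of members, 35.9% of Nkg7=0 Treg cells and 13% of macrophage-like cells held a Ccl5 UMI. Ccl4 stood at 944 against 359 CPM (2.63, 2.45 to 2.82) and Ccl3 at 237 against 95.7 CPM (2.48, 2.15 to 2.85), both inflammatory chemokines. For these chemokines the comparison cells mattered: with the same exclusions and depth strata together the ratio was 1.59 for Ccl4 and 1.39, no longer past the fold, for Ccl3. A single member held 227 of the 1473 Ccl4 UMIs. Macrophage-like cells carried 3252 CPM of Ccl4 and 921 CPM of Ccl3, and the part of free RNA in these levels was not tested.

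**Figure D1:**
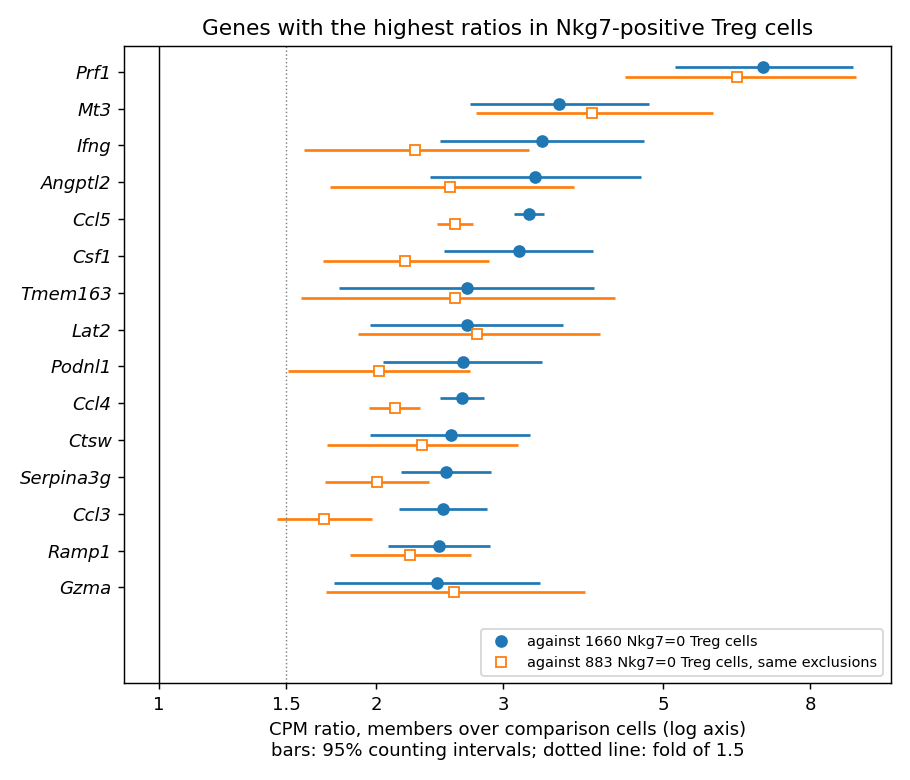
CPM ratios of the 15 genes with the highest values in members against all Nkg7=0 Treg cells (filled circles) and against those with the same exclusions (open squares), on a log axis, with 95% counting intervals and a dotted line at a fold of 1.5. Prf1 sits apart at 6.88 and 6.33, and Ccl3, at 2.48 and 1.70, lies nearest the line.

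Cytokine genes followed. Ifng, the type 1 effector cytokine, stood at 53.2 against 15.7 CPM (3.39, 2.45 to 4.70) from 83 UMIs in 49 members (12.3%, thinned 6.4% against 2.15% in Nkg7=0 Treg cells and 2.15% in macrophage-like cells), and the ratio was 2.27 under the same exclusions. Csf1, the growth factor of macrophages, stood at 94.2 against 29.9 CPM (3.15, 2.49 to 4.0), from 147 UMIs in 78 members. The remaining genes of the 15 were Mt3, a metallothionein that binds zinc (70.5 against 19.6 CPM, ratio 3.59), Angptl2, a secreted angiopoietin-like protein (49.3 against 14.8 CPM, 3.33), Tmem163 (2.68), Lat2, a linker of immunoreceptor signaling (2.67), Podnl1 (2.64), the cysteine protease Ctsw of cytotoxic cells (2.54), the serine protease inhibitor Serpina3g (2.50), Ramp1 (2.44) and Gzma (2.43). For Mt3, Lat2, Tmem163 and Ctsw the ratio with both the same exclusions and depth strata was 4.29, 3.46, 3.32 and 3.01. Lat2 was also read in macrophage-like cells, at 158 CPM against 52.5 CPM in members.

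Gzma, granzyme A, rested on few cells. Its 69 UMIs came from 12 members, and 1 cell held 28 of them, while 69 Nkg7=0 Treg cells shared 87 UMIs. The share of cells with a Gzma UMI was 3.02% in members and 4.16% in Nkg7=0 Treg cells, the opposite order of the CPM. Among cells with at least 2 Foxp3 UMIs the Gzma ratio was 0.527. No direction is therefore given for Gzma.

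Of the 10 highest ratios under the same exclusions, the gene that was not among these 15 was Pclaf, a factor bound to the replication clamp, at 2.96 (90.4 CPM in members).

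The lowest ratios had another character. Il1b and Igfbp4 had no UMI in members, and against a floor of 3 counts over the members they were at least 21.7-fold and at least 15.2-fold lower. Under the same exclusions the bound was 22.6-fold for Il1b but 4.37-fold for Igfbp4, which stood at 102 CPM in the Treg cells with Tcf7 or Ccr7 and no Il1rl1. Igfbp4, an insulin-like growth factor binding protein of naive T cells, had 140 UMIs in 43 Nkg7=0 Treg cells. Il1b had 200 UMIs in 21 Nkg7=0 Treg cells, with 66 in 1 cell, and stood at 507 CPM in macrophage-like cells. Several more of the 15 lowest were transcripts that macrophage-like cells carried at high levels: H2-Aa (0.16, 1474 CPM in macrophage-like cells), Cxcl2 (0.22, 3410 CPM) and Ccl8 (0.23, 1812 CPM). A UMI of H2-Aa was held by 62 Nkg7=0 Treg cells, 219 of the 827 UMIs by 1 of them, and without all cells holding a marker of another cell type the H2-Aa ratio was 0.417, while among cells with at least 2 Foxp3 UMIs it was 1.00. The others of this kind were Cxcl10 (0.19), Tgfbi (0.20) and Il1rn (0.22), which macrophage-like cells carried at 476 CPM, 616 CPM and 781 CPM. With no upper limit on the genes per cell Cxcl2 stood at 1.13 and Tgfbi at 0.679, so no direction is given for these macrophage transcripts.

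Genes of T cells also lay among the lowest. Ly6c1, a surface protein of resting memory cells, stood at 5.77 against 53.3 CPM (0.11, 0.05 to 0.21). Tnfrsf25, the death receptor DR3, stood at 5.77 against 49.7 CPM (0.12, 0.05 to 0.22) and was spread over 202 Nkg7=0 Treg cells. The chemokine receptor Ccr6 stood at 3.20 against 27.2 CPM (0.12), Ccr3 at 7.69 against 42.2 CPM (0.18) and Dgat2, an enzyme of triglyceride synthesis, at 6.41 against 53.9 CPM (0.12). With the same exclusions Ccr6 was at 0.20 and Dgat2 at 0.25, so the limits of the rule on Il1rl1, Tcf7, Ccr7 and Areg moved these values by over 1.5 times. Il17a stood at 4.49 against 32.4 CPM (0.14), with its 155 UMIs in 32 Nkg7=0 Treg cells, and Tmtc2 had a ratio of 0.24. Spp1, which joined the lowest under the same exclusions at 0.13, was at 5092 CPM in macrophage-like cells.

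Of 14 cytotoxic granule genes with enough UMIs, 5 were past the fold on the higher side and 2 on the lower, with a median ratio of 1.17. The 5 include Gzma, for which no direction is given. Besides it, Prf1 and Ctsw, they were the cystatin Cst7 (447 against 207 CPM, 2.16) and the lysosomal protease Ctsd (299 against 144 CPM, 2.08). Lower were Lamp1, a membrane protein of lysosomes (37.2 against 74.6 CPM, 0.50), and Stx11, a syntaxin of granule fusion (59.0 against 120 CPM, 0.49). Srgn, the granule proteoglycan, was near equal at 1.11, as were the docking factors Rab27a and Unc13d at 1.13 and 1.12. Gzmc lay below the minimum with 57 UMIs in members and 35 in Nkg7=0 Treg cells (ratio 4.99, 3.22 to 7.84), but 1 member held 44 of the 57. Gzmk likewise had 23 against 31 UMIs (2.27, 1.27 to 4.03), and Gzme and Gzmg had none in members.

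In the type 1 list 6 of 18 genes were past the fold on the higher side and 0 on the lower (median 1.10). They were Tbx21, which encodes T-bet (41.7 against 22.8 CPM, 1.83), Cxcr3 (194 against 126 CPM, 1.54, 1.34 to 1.77), Ifng, Ccl3, Ccl4 and Ccl5. Under the same exclusions Cxcr3 stood at 1.27, and among cells with at least 2 Foxp3 UMIs Tbx21 stood at 1.10, both short of the fold. Il12rb2, the inducible chain of the interleukin-12 receptor, had 50 against 48 UMIs (3.19, 2.11 to 4.85) and missed the minimum. The interleukin-18 receptor chain Il18r1 (0.70) lay below 1 within the fold.

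NK-type receptors were scarce. Only 4 of 16 listed genes had enough UMIs, and 2 of these, the adaptors Fcer1g (0.48) and Tyrobp (0.30), were past the fold on the lower side. Without cells that held a marker of another cell type Fcer1g turned to 1.25. Klrg1, a receptor of differentiated T cells, was at 301 against 286 CPM (1.05). Klrd1, Klrc1 and Klrk1 were below the minimum, with 39, 31 and 20 UMIs in members and ratios of 2.26, 2.72 and 2.11. Klrb1c, Klrb1f and Klra3 had no UMI in members.

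Inhibitory receptors and related genes had the highest median of the receptor lists, 1.49, with 5 of 11 past the fold on the higher side and 1 on the lower. Lag3, a receptor for MHC class II, stood at 581 against 271 CPM (2.14, 1.97 to 2.34), with thinned shares of cells of 46.7% in members against 22.5%, and a thinned share of 1.02% in macrophage-like cells. Pdcd1, which encodes PD-1, stood at 111 against 53.7 CPM (2.06), and Havcr2, which encodes Tim-3, at 78.2 against 47.7 CPM (1.64). Nr4a2, an orphan nuclear receptor, stood at 2.12 and the ectonucleotidase Entpd1 at 1.53, while Nr4a3 stood at 0.64. Tigit lay at 1.49, just short of the fold. Under the same exclusions Entpd1 was at 1.24 and the median of the list at 1.25.

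Of 16 Treg identity genes, 2 were past the fold on the higher side and 3 on the lower (median 0.925). Il10, the suppressive cytokine, stood at 156 against 87.4 CPM (1.79, 1.52 to 2.10), though at 1.28 under the same exclusions and 1.99 with these and depth strata. The lower genes were Il2ra, the high-affinity interleukin-2 receptor chain (275 against 507 CPM, 0.54), Ikzf4 (0.60) and Nrp1, neuropilin 1 (19.2 against 46.2 CPM, 0.42). With the same exclusions and depth strata, Il2ra (0.683) and Ikzf4 (0.811) were no longer past the fold, and Nrp1 stood at 0.506. Ctla4 (0.83), Ikzf2 (0.94), Tnfrsf18 (1.03) and Tgfb1 (0.97) lay within the fold. Foxp3 itself, a gene of the rule, was at 631 against 767 CPM. Of 9 costimulatory receptors, the 1 past the fold was Slamf6 on the lower side (0.50), and Cd27 stood at 1.45.

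Among 18 chemokine and homing receptors, Cxcr3 was past the fold on the higher side and 6 on the lower. Among the latter were Ccr4 (10.9 against 38.9 CPM, 0.28), Ccr6, the egress receptor S1pr1 (0.48), the oxysterol receptor Gpr183 (0.50) and Cxcr4 (0.55, but 0.907 with the same exclusions and depth strata). Ccr8, the receptor widely found on tumor Treg cells, was level at 186 against 176 CPM. Cxcr6 stood at 1.43 and under the same exclusions at 1.57. Central genes, a list that shares Tcf7 and Ccr7 with the limits of the rule, had 7 of 8 on the lower side (median 0.515), among them Klf2, a factor of resting and recirculating T cells (243 against 837 CPM, 0.29), Satb1 (0.41) and Id3 (0.27). With the same exclusions 5 of 7 were still on the lower side, and with depth strata added the ratio was 0.50 for Klf2 and 0.60 for Id3. In the tissue repair and IL-33 list 4 of 9 were on the lower side (Gata3 0.62, Rora 0.60, Sdc4 0.60 and Dgat2), against 2 of 8 with the same exclusions.

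Ramp1 was the only gene past the fold on the higher side among 11 receptors and enzymes linked to cAMP or neuropeptides. It stood at 174 against 71.1 CPM (2.44, 2.08 to 2.88), at 2.23 under the same exclusions and at 2.18 with depth strata added. Calcrl, whose protein pairs with Ramp1 in the CGRP receptor, had 13 UMIs in members and 49 in Nkg7=0 Treg cells (8.33 against 10.2 CPM). Ramp3, its alternative partner, was at 12.2 against 30.9 CPM (0.39, but 0.731 with the same exclusions and depth strata), and the adenosine receptor Adora2a at 0.58. Penk, the precursor of enkephalins, lay within the fold at 212 against 170 CPM.

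**Figure D2:**
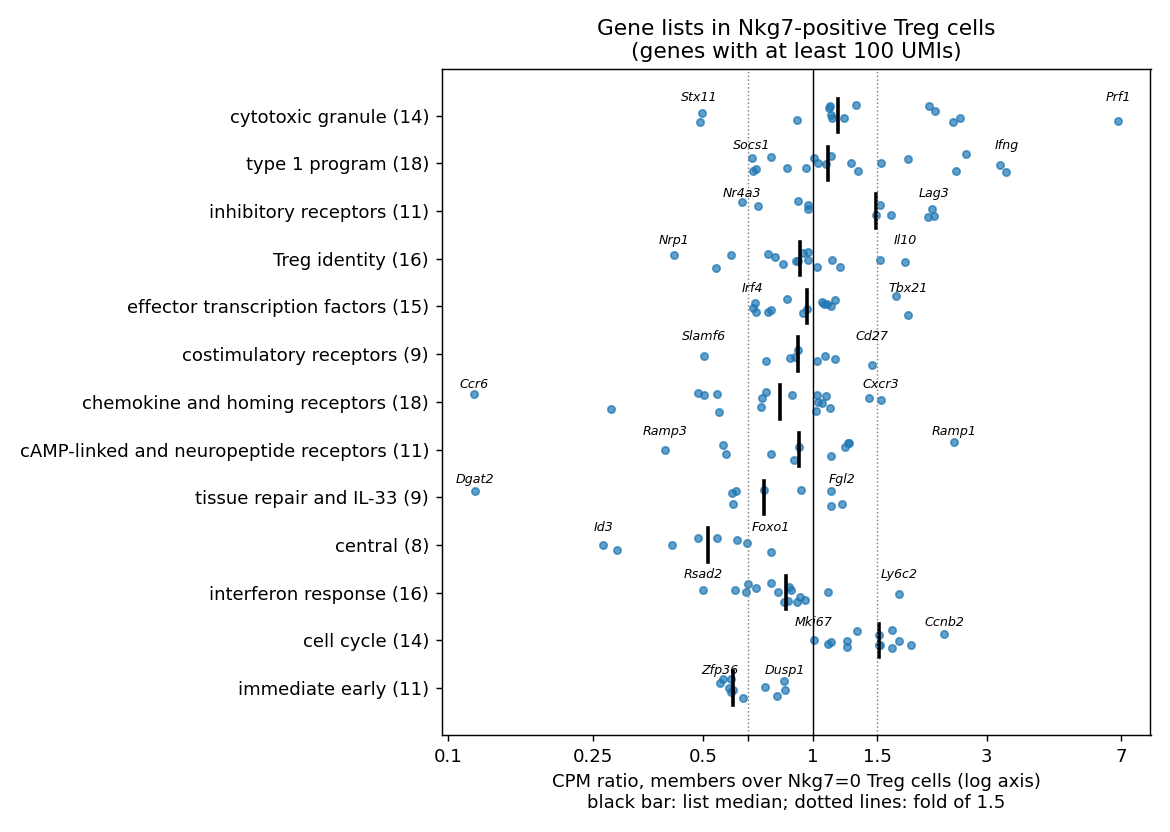
CPM ratios of members over Nkg7=0 Treg cells for the genes of 13 lists (1 point per gene with at least 100 UMIs, numbers of genes in parentheses), on a log axis, with the list median as a black bar, the lowest and highest gene named and dotted lines at a fold of 1.5. Inhibitory receptors have a median of 1.49, and central genes, whose list overlaps the limits of the rule, one of 0.515.

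The cell cycle list had 8 of 14 genes past the fold on the higher side, but 3 with depth strata, and Mki67 stood at 1.01. At least 1 UMI of Mki67 or Top2a was held by 19.9% of members and 18.9% of Nkg7=0 Treg cells. Immediate early genes had 7 of 11 on the lower side (median 0.604, Fos 380 against 645 CPM, Jun 275 against 460 CPM), and 2 with depth strata. The interferon list had 1 gene on the higher side, Ly6c2 (1.72, but 0.918 with the same exclusions and depth strata), and 4 of 16 on the lower. Of the effector transcription factors, Tbx21 and Litaf (153 against 90.3 CPM, 1.69) were past the fold and Prdm1, Maf, Id2 and Runx3 were within it. Anxa2, a membrane-binding annexin (768 against 354 CPM, 2.17), was past the fold among the S100, annexin and galectin genes, and Hk2 (0.58, interval 0.32 to 1.00) was on the lower side among 11 glycolysis and hypoxia genes. Of 4 MHC class II and B cell genes, 3 had a ratio past the fold on the lower side, and each lost it under an alternative: with at least 2 Foxp3 UMIs H2-Ab1 turned from 0.46 to 1.60 and H2-Aa stood at 1.00, and under the same exclusions Cd79b stood at 0.912.

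Within the members the level of Nkg7 ordered some of these genes and not others. Prf1 stood at 17.6 CPM in Treg cells with 1 Nkg7 UMI, at 29.1 CPM in members with 2, at 61.6 CPM with 3 or 4 and at 165 CPM with 5 or more (95% Poisson interval 138 to 196). After thinning the shares had the same order, with 4.20%, 7.88% and 11.8% of the members of these bins holding a Prf1 UMI. These shares rest on 96, 98 and 173 members of at least 1500 UMIs, and no interval is given for them. The bins were cut on Nkg7, a gene of the rule, so the order is a description. Ramp1 stood at 109 CPM, 121 CPM and 231 CPM over the same member bins, Lag3 at 394 CPM, 470 CPM and 725 CPM, and Ccl4 at 296 CPM, 665 CPM and 1389.6 CPM. Single members held 34 of the 166 Prf1 UMIs and 227 of the 1473 Ccl4 UMIs, and neither order was retaken without them. From 1 to 2 Nkg7 UMIs the order did not hold for all: the intervals of Prf1 and Ramp1 overlapped, Lag3 went from 430 to 394 CPM with overlapping intervals, and Ccl4 from 439 to 296 CPM.

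Other genes did not follow this order. Cxcr3 stood at 233 CPM, 208 CPM and 169 CPM from the lowest to the highest Nkg7 bin, with overlapping intervals. Gzmb stood at 1403 CPM, 1727 CPM and 1533 CPM. Foxp3 was at 709 CPM, 652 CPM and 584 CPM, and Icos, the inducible costimulator, at 791 CPM, 775 CPM and 560 CPM. Depth differed between the bins, with medians of 2913, 3219 and 4227 UMIs, and Nkg7 UMIs per cell depend on it.

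**Figure D3:**
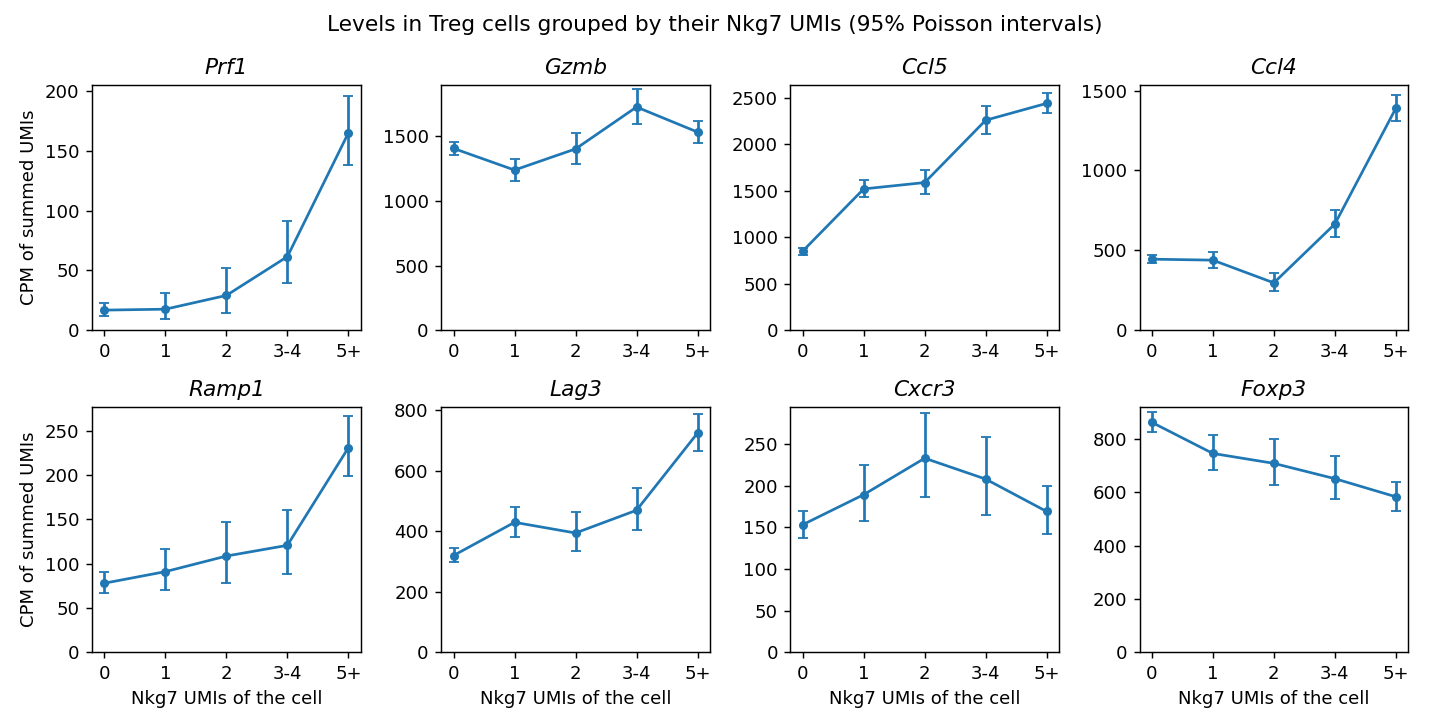
CPM of 8 genes in Treg cells grouped by their Nkg7 UMIs, from Nkg7=0 cells with the same exclusions through cells with 1 UMI to members with 2, 3 or 4, and 5 or more, with 95% Poisson intervals. Prf1 goes from 29.1 to 165 CPM and Ccl4 from 296 to 1389.6 CPM across the members, while Cxcr3 goes from 233 to 169 CPM. Single members held 34 of the 166 Prf1 UMIs and 227 of the 1473 Ccl4 UMIs.

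In summed UMIs, Prf1 was lower in the members with a Cxcr3 or a Ramp1 UMI, but the reverse split did not show this. Members with a Prf1 UMI had Cxcr3 at a ratio of 0.91 (0.66 to 1.23) and Ramp1 at 0.85 (0.60 to 1.18), intervals that included 1. In the 185 members with a Cxcr3 UMI, Prf1 stood at 63.5 CPM, against 154 CPM in the 212 without (ratio 0.41, 0.29 to 0.58), and Lag3 at 420 against 758 CPM (0.55). In the 136 members with a Ramp1 UMI, Prf1 stood at 46.4 against 151 CPM (0.31, 0.20 to 0.46) and Gzmb at 997 against 1965 CPM (0.51). The level of Cxcr3 itself was alike in members with and without Ramp1, at 199 and 191 CPM (1.04, 0.83 to 1.32). Members with these UMIs were deeper, with medians of 4180 against 3173 UMIs for Cxcr3 and 4827 against 3172 UMIs for Ramp1.

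In summed UMIs, Gzmb and Ccl4 were higher in the members with Prf1. Members with a Prf1 UMI had Gzmb at 2644 against 1295 CPM (2.04, 1.87 to 2.22), Ccl4 at a ratio of 1.70 and Mt3 at 2.17, while the interval of Csf1 included 1 (1.19, 0.78 to 1.78). Members with Ccl4 had Prf1 at 230 against 50.3 CPM (4.56, 3.27 to 6.44) and Csf1 at 172 against 58.7 CPM (2.93). In the 261 members with Lag3, whose depth matched that of the 136 without (medians of 3535 and 3531 UMIs), Ccl4 stood at 1281 against 271 CPM (4.73), Csf1 at 2.70 and Prf1 at 2.58. The 49 members with Ifng were unlike these, with Klrg1 at 82.6 against 336 CPM (0.25, 0.15 to 0.39), Ccl4 at 0.49 and Lag3 at 0.58, but Prf1 at 2.22. Reverse splits did not always give the same reading. Members with a Prf1 UMI had Lag3 at 1.15 (0.98 to 1.35) and Ifng at 0.80 (0.40 to 1.45), intervals that included 1. Members with a Csf1 UMI had Prf1 at 2.60 (1.87 to 3.59). These splits were made on single UMIs in sparse counts and are given as descriptions. Single members held 227 of the 1473 Ccl4 UMIs, 165 of the 2419 Gzmb UMIs and 34 of the 166 Prf1 UMIs. The ratios were not retaken without these cells, and the Ccl4 ratio for members with Prf1 rests on 419 Ccl4 UMIs in them.

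Other T cells with at least 2 Nkg7 UMIs set the levels of the members in place. Nkg7 stood at 1581 CPM in members, at 2128 CPM in 938 CD8 T cells and at 1374 CPM in 396 CD4+ cells without Foxp3 (conventional cells). Prf1 was at 106 CPM in members, between 156 CPM in CD8 T cells (ratio of members to CD8 T cells 0.68, 0.57 to 0.81) and 17.8 CPM in conventional cells (5.98, 3.88 to 9.60). Ccl5 and Ifng were higher in the other T cells, with Ccl5 at 9469 and 4275 CPM and Ifng at 321 and 157 CPM in CD8 and conventional cells. Gzmb stood at 1550 CPM in members against 1122 CPM in CD8 T cells and 578 CPM in conventional cells.

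Some transcripts stood higher in members than in either of these Nkg7-positive T cells. Ramp1 was at 174 CPM in members against 26.1 CPM in CD8 T cells (6.66, 5.31 to 8.41) and 59.3 CPM in conventional cells (2.93, 2.27 to 3.81). Lag3 was at 581 CPM against 186 and 199 CPM, Csf1 at 94.2 CPM against 15.6 and 43.7 CPM, and Il10 at 156 CPM against 13.2 and 49.7 CPM. Nkg7=0 Treg cells also stood above both for Ramp1 (71.1 CPM), Lag3 (271 CPM) and Il10 (87.4 CPM), but not for Csf1 (29.9 CPM). Eomes, a factor of CD8 T and NK cells, was at 0.641 CPM in members and 59.0 CPM in CD8 T cells. It was low in other Treg cells too, at 2.44 CPM with Il1rl1 and 3.95 CPM with Tcf7 or Ccr7 and no Il1rl1. Against the other Treg cells, Prf1 was at 17.1 CPM in the 504 with an Il1rl1 UMI and 15 CPM in the 323 with Tcf7 or Ccr7 and no Il1rl1, and Ramp1 at 64.1 and 83.7 CPM.

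TCR sequences were not used by the rule. A clonotype, as the deposited TCR table defines it, was given for 318 members, and a clone was called expanded when it held at least 2 Treg cells. Of these members, 33 were in an expanded clone (10.4%, 7.25 to 14.3%), against 39 of 1006 Nkg7=0 Treg cells (3.88%), a difference of 6.50 percentage points (3.08 to 10.5). Against the same exclusions the share was 27 of 519 (5.20%) and the difference 5.18 points (1.31 to 9.44). Treg cells with 1 Nkg7 UMI had 14 of 152 (9.21%, 5.13 to 15%), an interval that overlapped that of the members, and those with Il1rl1 had 2.43%. The Treg cells with 2 or more Nkg7 UMIs that the other limits left out had 7 of 123 (5.69%, 2.32 to 11.4%). By the beta chain alone the shares were 16.7% and 9.55% (difference 7.11 points), but against the same exclusions the difference was 4.32 points with an interval from −1.38 to 10.4, which includes 0. The Treg cells with 1 Nkg7 UMI then stood at 10.8%, and Nkg7=0 Treg cells with the same exclusions at 12.3%. Clones were small: 299 of 308 clones with a member held 1, 8 held 2 and 1 held 3.

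Each member was paired with every other Treg cell of its clone, so a pair of 2 members counted from both sides. Of these 43 pairs, 22 had a member as the mate (51.2%, 35.5 to 66.7%). Members were 18.7% of all Treg cells with a clonotype, and 33 of the 98 that were in an expanded clone. The mates of Nkg7=0 Treg cells were members in 13 of 48 pairs (27.1%, 15.3 to 41.8%). By the beta chain the share for members was 26 of 60 (43.3%). Pairs of 1 clone are not independent, and 23 clones gave the 43 pairs, so the intervals of these shares are too narrow. Of the 308 clones, 9 (2.92%) also held Nkg7=0 Treg cells, which was 0.903% of the 997 clones of those cells, and 7 (2.27%) also held conventional cells, against 6 of the 997 (0.602%).

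The CDR3 sequences of the 2 clones with the most members are shown as examples of clones with several members, as the nucleotides of the deposited contigs from 5′ to 3′, in lower case throughout since the whole run is the clone's mark. Ties in size were broken by the number of the clonotype. The first clone held 3 Treg cells, all members, with 9, 3 and 2 Nkg7 UMIs.
clone 1 alpha (TRAV13D-2, TRAJ21): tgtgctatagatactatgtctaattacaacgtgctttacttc
clone 1 beta (TRBV3, TRBJ2-5): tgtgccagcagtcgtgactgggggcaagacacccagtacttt
clone 2 alpha (TRAV4-4-DV10, TRAJ26): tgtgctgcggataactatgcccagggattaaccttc
clone 2 beta (TRBV3, TRBJ2-2): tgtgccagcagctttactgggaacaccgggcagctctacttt
The second clone held 4 Treg cells, of which 2 were members with 7 and 4 Nkg7 UMIs and 2 held none, and also 1 cell without Foxp3. The beta chains of both used TRBV3, with CDR3s of 42 bases. The next 3 clones by this order had 2 members each. The third (TRAV16N, TRBV16) held Nkg7 at 3 and 2 UMIs and had 1 cell without Foxp3, the fourth (TRAV6-7-DV9, TRBV26) held 4 and 2 UMIs, and the fifth (TRAV7-5, with TRBV12-2 or TRBV13-2 named for the same CDR3) held 5 and 5 UMIs and had 1 Nkg7=0 Treg cell.

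Tumor of origin was read from the hashtags, which were thin: 66 members (16.6%) held any tag UMI, 54 of them a single UMI, and no member held more than 3. The tagged share differed between the groups compared, at 9.28% of Nkg7=0 Treg cells, 11.7% of those with the same exclusions and 4.96% of Treg cells with Il1rl1, and whether the tag table is complete is not known. Of the 66, 63 carried B16 tags and 3 B16-IL33 tags (4.55%, 0.947 to 12.7%), against 35 of 154 tagged Nkg7=0 Treg cells with B16-IL33 tags (22.7%). The difference was −18.2 percentage points (−26.4 to −7.83), and −13.9 points (−23.5 to −3.17) against the same exclusions. With the tags numbered 1 alone the difference was −15.5 points and its interval (−29.8 to 9.29) included 0. Among Treg cells with an Il1rl1 UMI, 13 of 25 carried B16-IL33 tags. The Treg cells with 2 or more Nkg7 UMIs that the other limits left out had 7 of 34 (20.6%, 8.70 to 37.9%), near the share of Nkg7=0 Treg cells. Treg cells with 1 Nkg7 UMI and the same exclusions had 5 of 31 (16.1%, 5.45 to 33.7%). The low share of the members therefore does not hold for all Treg cells with Nkg7.

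Read the other way, members were 63 of 245 Treg cells with B16 tags (25.7%, 20.4 to 31.7%) and 3 of 55 with B16-IL33 tags (5.45%, 1.14 to 15.1%), a difference of −20.3 points (−27.6 to −9.21). Each tag on its own gave 18.8% and 29.1% for B16 and 5.56% and 5.41% for B16-IL33. Because the rule removed cells with Il1rl1, the share was also taken over the Treg cells that met the limits on Il1rl1, Tcf7, Ccr7 and Areg, and it was then 63 of 173 (36.4%) for B16 and 3 of 27 (11.1%) for B16-IL33, a difference of −25.3 points (−36.9 to −5.89). Without those limits, 2 or more Nkg7 UMIs were held by 90 of 245 Treg cells with B16 tags (36.7%) and 10 of 55 with B16-IL33 tags (18.2%). The difference was then −18.6 points (−29.7 to −4.47). Tagged Treg cells were deeper for B16 than for B16-IL33 (medians of 3401 and 2467 UMIs). A single tag UMI can also come from free antibody, whose part was not tested, and tumor, mouse and tag cannot be told apart with 1 pool.

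**Figure D4:**
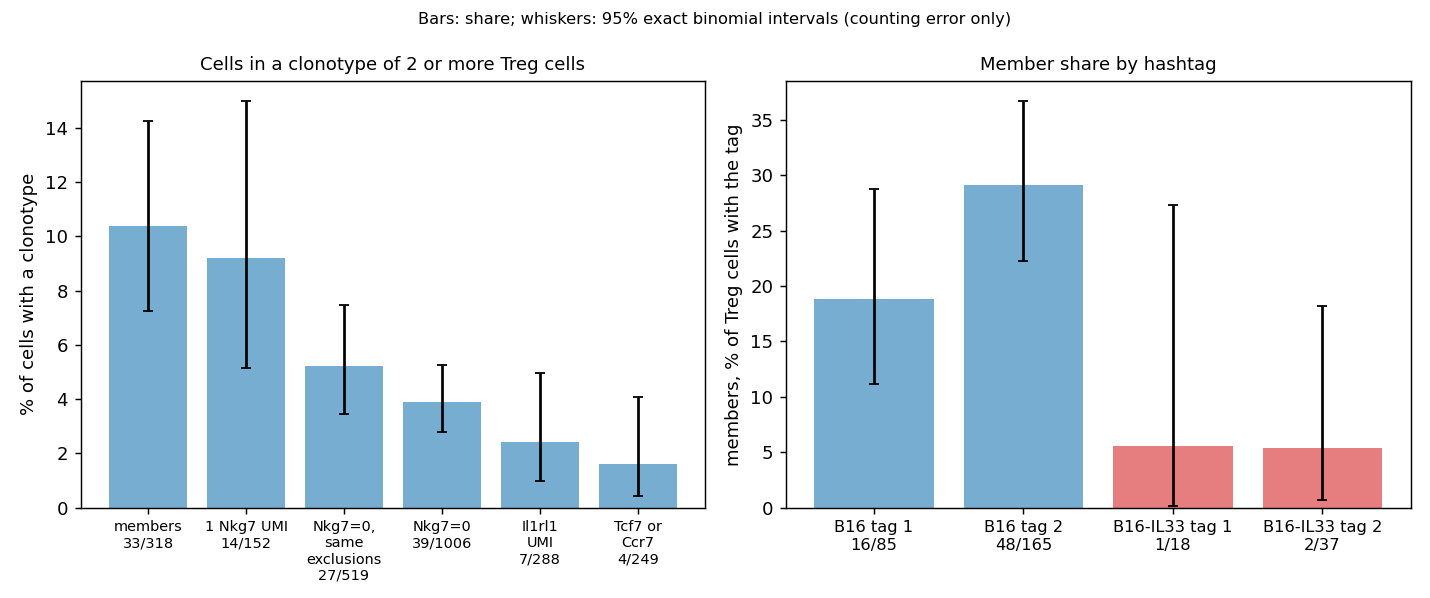
Left, percent of the cells with a clonotype that were in a clone of at least 2 Treg cells, for members and 5 other groups of Treg cells. Right, members as percent of the Treg cells with each hashtag (cells with tags of 1 tumor line); whiskers are 95% exact binomial intervals, and members reach 10.4% on the left and 18.8% and 29.1% with B16 tags on the right.

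Across all 300 Treg cells with a tag, without regard to the rule, the genes of the members differed in how they followed the tumor. Nkg7 stood at 254 CPM in B16-IL33 against 749 CPM in B16 (ratio 0.34, 0.25 to 0.46), Cxcr3 at 71.8 against 183 CPM (0.39, 0.20 to 0.69) and Ramp1 at 77.3 against 153 CPM (0.51, 0.27 to 0.88). Prf1 had 2 against 35 UMIs (0.30, 0.03 to 1.16). Ccl5 (0.89, 0.77 to 1.03) and Ccl4 (0.94, 0.77 to 1.15) were near level, Gzmb was at 0.75, and Lag3 was the other way at 480 against 351 CPM (1.37, 1.07 to 1.74). Il1rl1 and Areg, genes of the rule, were at 9.17 and 4.26.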

How the data were processed

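The authors deposited 1 filtered matrix of UMI counts per gene and barcode, hashtag counts and a table of TCR contigs. The labels name Cell Ranger 6.1.1 and a file header 3.1.0, and reads were not realigned. Cells with 200 to 2500 genes and under 5% mitochondrial counts were kept. No doublet caller was run, and cells with 2 beta chains were left out as an alternative. Counts were summed per group, scaled to CPM and compared as ratios with exact conditional binomial intervals (Python 3.11.15, numpy 2.4.6, scipy 1.17.1, pandas 2.3.3, matplotlib 3.10.9). Shares had Clopper-Pearson intervals, differences of shares square-and-add intervals, and thinning to 1500 UMIs used hypergeometric expectations. A gene needed 100 UMIs in both groups together and was called past a fold of 1.5. Named genes were the 15 highest and 15 lowest ratios, with the 10 highest and 5 lowest under the same exclusions, and the listed genes. The members and lists were chosen with earlier results of these data known. On simulated counts for the comparison of members with Nkg7=0 Treg cells (5912 genes), 99% of 100 genes raised 2-fold, 94% of 100 genes lowered to 0.5 and 2.08% of 5712 unchanged genes were past the fold. The simulated counts were Poisson draws of group sums without spread between cells. The 2.08% therefore does not cover genes whose UMIs lie mostly in a few cells. Values of some listed genes are not reported here.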

Additional observations from a re-analysis of the deposited data

Results flagged for a closer look

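The matrix also held human genes, which no comparison used. Over the members they had 190 UMIs, 122 CPM (95% Poisson interval 105 to 140), above the limit that a count of 0 allows. Nkg7=0 Treg cells had 669, or 140 CPM (129 to 151). There was no control sample, and the source of these UMIs was not tested.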

How the results depend on the processing

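No paired analysis was possible because the cells came from 1 pool that the hashtags, on 66 of 397 members, could not divide into replicate samples. Against 179 genes past the fold on the higher side and 388 on the lower, the counts were 88 and 225 with the same exclusions, 349 and 717 with a minimum of 50 UMIs, 48 and 124 with a minimum of 300 UMIs, and 119 and 148 with the same exclusions and depth strata together, an alternative chosen after seeing the data. With members taken from 1 Nkg7 UMI up, 248 genes were on the lower side, and with no upper limit on genes per cell, 279 on the higher. Of the listed genes, 45 were on the lower side and 22 with the same exclusions and depth strata. Members were 15.2% of Treg cells, 10.9% from 3 Nkg7 UMIs up, 24.5% from 1 UMI up, 18.7% among cells with a TCR and 17.0% among cells of at least 1500 UMIs (the last chosen after seeing the data). With clones of at least 3 Treg cells the clone difference was 1.82 points (0.22 to 4.24).

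Of 2853 gene ratios under 13 alternatives, 461 moved beyond the interval of the reported value. Among genes past the fold, 116 values of 37 genes moved by over 1.5 times, such as Angptl2 from 3.33 to 2.16 with at least 2 Foxp3 UMIs and Ccr3 from 0.18 to 0.41 with the same exclusions and depth strata. A further 15 of the 2853 changed direction, in most cases in genes that macrophage-like cells carried, and the cause was not tested. With no upper limit on genes, Cxcl2 stood at 1.13, Lyz2 at 1.12 and Spp1 at 1.88. With at least 2 Foxp3 UMIs, C1qa stood at 1.74, C1qb at 1.26, Gzma at 0.527, H2-Aa at 1.00 and H2-Ab1 at 1.60. Without cells holding another type's marker, Fcer1g stood at 1.25 and Spp1 at 1.90, and without cycling cells C1qa at 1.30 and C1qb at 1.28. With TCR cells alone H2-Ab1 stood at 1.46, and with the same exclusions and depth strata Lef1 stood at 1.00 and Ly6c2 at 0.918. Single UMIs limited the tags, and 1 pool the rest.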
